A study of Arabidopsis thaliana with 24 samples.

Results

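Leaves of sDH plants were compared with leaves of haploid 1n plants of Arabidopsis thaliana by RNA sequencing. The members are the 4 RNA libraries that the labels give to these groups, sDH II and sDH III against 1n 1 and 1n 2, out of 12 RNA libraries and 24 samples in the series. The study set doubled-haploid (DH) plants beside haploids and diploids, and its labels do not spell out the letter s in sDH. The names of the count tables carry the letters Col, the usual short form of the Columbia accession, for the 1n plants and for the wild type, which was taken as the diploid 2n, and the background of sDH is not given in the sources used here. The other RNA groups are the lines DH6, DH9 and DH14 and the diploid 2n, with 2 libraries each. All groups share the same handling: the plants grew on soil at 22 °C under days of 16 h and nights of 8 h, after seed had been held for 2 days at 4 °C, and leaves 6, 7 and 8 were taken at an age of 2 weeks. The labels name no transgene and no treatment in any group, and give the tissue as seedlings. A haploid plant has a single copy of each chromosome and sets little seed, and chromosome doubling of a haploid gives a plant whose copies are alike. The labels call the libraries biological replicates without saying whether they came from separate plants, sowings or lines. The p-values below thus measure the spread between libraries of a group alone. That spread was estimated from all 12 RNA libraries in 6 groups together, and not from the 4 members alone. Whether sDH is 1 line or several, and at what hour leaves were harvested, is not given in the sources used here.

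Leaves balance growth against defence and draw on their own reserves when sugar runs short. Salicylic acid is the hormone that switches on resistance against microbes that feed on living cells, and its synthesis amplifies itself through receptors and transcription factors that it induces. In long darkness or hunger for sugar, leaf cells induce amidotransferases and the enzymes that burn branched-chain amino acids in mitochondria in place of sugar. Young leaves also hold dividing cells, whose number falls as the leaf expands, and cells of the stomatal lineage, which go on dividing longest. Levels below are CPM, the counts of a gene relative to the total of its library, scaled by the trimmed mean of M values, given for sDH II and sDH III in this order and then for 1n 1 and 1n 2. A gene rose or fell where edgeR's quasi-likelihood test gave an adjusted p (Benjamini-Hochberg, over all genes) under 0.05. Changes on the log2 scale are sDH over 1n with a standard error (SE). This SE was derived from the test, as the absolute log2 change divided by the square root of the test's F statistic. In RNA of whole leaves, fewer cells of a type and less RNA per cell cannot be told apart.

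The sDH libraries held 21034760 and 17434011 counts in genes, against 17276698 and 16484799 in the 1n libraries. Replicates differed by more than read sampling in both groups: chi-square divided by its degrees of freedom was 7.32 between the sDH libraries and 25.2 between the 1n libraries. Among genes tested, 0.927% differed over 2-fold between the sDH libraries and 4.59% between the 1n libraries, of which 718 were higher in 1n 2 and 163 higher in 1n 1 (on CPM + 0.5). The 1n libraries thus stood further apart, above all in jasmonate genes. Median log2 changes of the 5 chromosomes lay between -0.018 and 0.020.

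Of 19201 genes tested, 4631 (24.1%) rose and 4687 (24.4%) fell in sDH, so 48.5% passed in either direction. Changes over 2-fold were seen in 1504 genes that rose and 1908 that fell. The median log2 change of all genes tested was 0.01. In 72.4% of genes tested both sDH libraries lay on the same side of both 1n libraries, so an absence of overlap is the common case. Genes without a single count in sDH but with a mean of 20 counts or more in 1n numbered 29, and 13 genes showed the reverse. A count of list members is read below against these shares of 24.1 and 24.4%. Of the lists in the plot of shares, those of salicylic acid, aliphatic glucosinolates, jasmonate, and camalexin and indolic glucosinolates have the lowest medians. Mitosis genes have the highest, followed by darkness, guard cell and trichome, and replication genes.

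**Figure D1:**
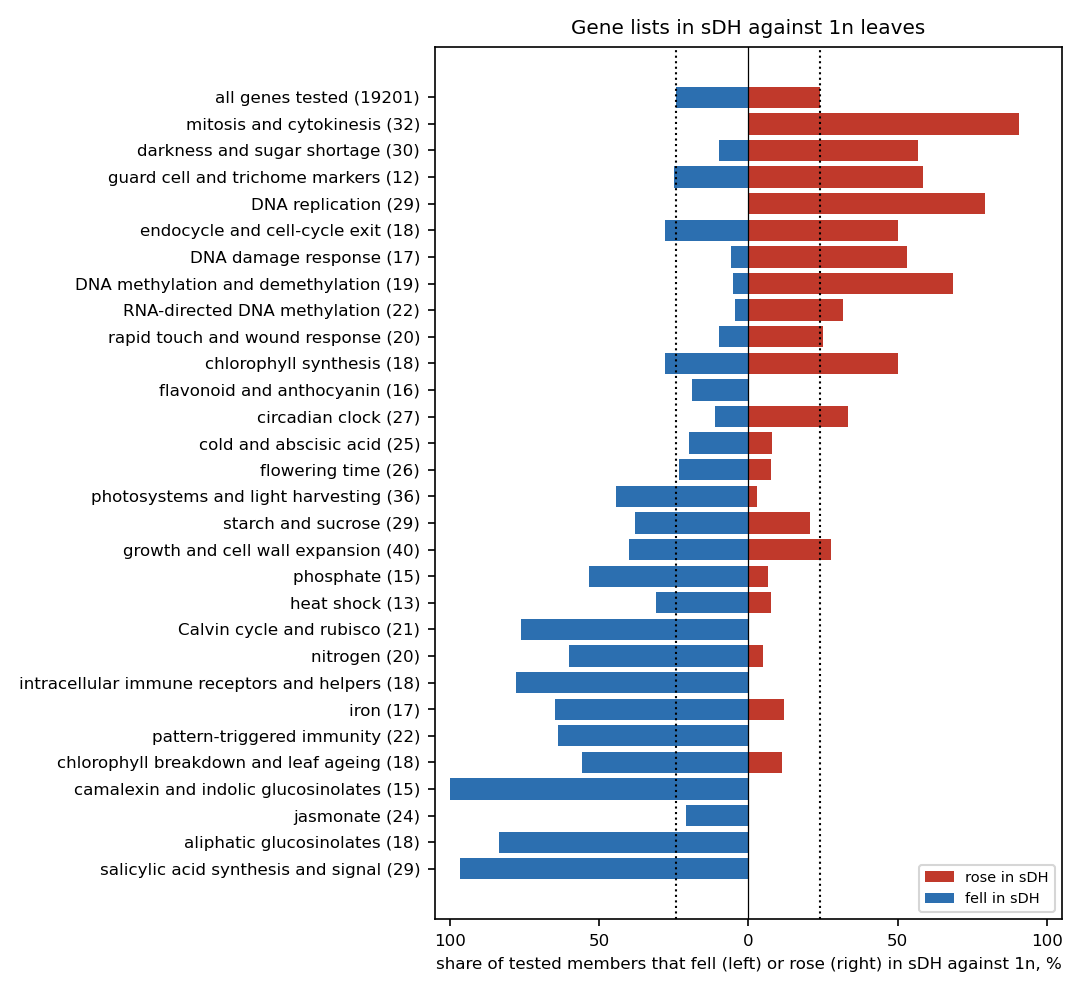
Each bar gives the share of a list's tested members that rose (red, right) or fell (blue, left) in sDH against 1n, in percent, with the number tested in brackets and lists ordered by median log2 change. Dotted lines mark the 24.1% of all genes that rose and the 24.4% that fell. Not drawn are the marker lists of mesophyll, root, flower and pollen, seed and shoot meristem. Kinetochore genes and loci silenced by DNA methylation are not drawn either. Of mitosis genes 29 of 32 rose, and of salicylic acid genes 28 of 29 fell.

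Genes of salicylic acid synthesis, transport, perception and response were lower in sDH. Of 29 tested, 28 fell and 1 did not pass (median log2 change -2.62, against 0.01 for all genes). ICS1, which makes isochorismate, the precursor of salicylic acid, stood at 16.1 and 14.7 CPM in the sDH libraries, against 48.5 and 43.2 CPM in the 1n libraries. EDS5, the transporter that carries isochorismate out of the chloroplast, measured 1.35 and 0.819 CPM in the sDH libraries, against 11.5 and 12.8 CPM in the 1n libraries. PBS3, which joins isochorismate to glutamate, came to 3.78 and 4.92 CPM in the sDH libraries, against 22.1 and 31.1 CPM in the 1n libraries. For these 3 genes both sDH libraries lay below both 1n libraries without overlap (ICS1: log2 change -1.57, SE 0.132, edgeR adjusted p = 7.66e-06). The changes of EDS5 and PBS3 were -3.44 and -2.62 on the log2 scale (SE 0.354 and 0.230, edgeR adjusted p = 2.41e-05 and 9.49e-06). SARD1, a transcription factor that binds the promoter of ICS1, fell as well (5.37 and 7.26 CPM in sDH, against 36.8 and 52.5 CPM in 1n, log2 change -2.83, edgeR adjusted p = 3.1e-05).

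The lipase-like immune regulators and the receptors of salicylic acid were lower too. PAD4, a lipase-like protein that works with EDS1, stood at 5.65 and 4.68 CPM in the sDH libraries, against 51.9 and 53.3 CPM in the 1n libraries. Both groups were tight and did not overlap (log2 change -3.34, SE 0.194, edgeR adjusted p = 1.26e-06). EDS1 itself fell by 1.48 and SAG101, its other partner, by 1.06 on the log2 scale (edgeR adjusted p = 0.000132 and 0.000108). NPR1, a receptor and coactivator of the hormone's responses, had 24.7 and 24.5 CPM in the sDH libraries, against 44.4 and 48.6 CPM in the 1n libraries, a log2 change of -0.92 (SE 0.106, edgeR adjusted p = 5.13e-05). NPR4, a receptor that acts as a repressor, changed by -0.93 (edgeR adjusted p = 2.72e-05). The enzymes that hydroxylate and so remove salicylic acid moved the same way: DMR6 had 25.4 and 27.2 CPM in sDH, against 125 and 89.6 CPM in 1n (log2 change -2.03, edgeR adjusted p = 4.97e-05). DLO1, the other hydroxylase, had 1 count in sDH II and none in sDH III, against 372 and 551 counts in 1n, a ratio of 1n to sDH of 1099.5 (95% interval of read counting 197 to 43476; edgeR adjusted p = 4.18e-05).

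Output genes of the pathway fell, with PR1 without a count in sDH. PR1, the usual marker of the response, had no count in either sDH library, against 166 and 466 CPM in the 1n libraries. PR2, a glucanase that cuts fungal walls, stood at 1.45 and 0.527 CPM in the sDH libraries, against 232 and 286 CPM in the 1n libraries. PR5, a thaumatin-like protein, measured 11.5 and 6.03 CPM in the sDH libraries, against 218 and 340.1 CPM in the 1n libraries (log2 change -4.98, edgeR adjusted p = 5.74e-06). In PR2 both sDH libraries lay far below both 1n libraries, and its log2 change of -7.97 lay between -7.47 without sDH III and -8.92 without sDH II (edgeR adjusted p = 7.54e-06 over all libraries). CRK7, a cysteine-rich receptor-like kinase, had no count in sDH, against 20.7 and 18.0 CPM in 1n, which makes it at least 249-fold lower (floor of 3 counts over the 2 sDH libraries, edgeR adjusted p = 2.2e-05). ALD1, an aminotransferase in the synthesis of pipecolic acid, a second signal of systemic resistance, was at least 119-fold lower on the same floor (edgeR adjusted p = 3.11e-05). PAD4, NPR4, PR2, WRKY38 and WRKY54 were the 5 members of the list that were also lower in sDH than in each of 2n, DH6, DH9 and DH14, which is set out further on. The calls of BSMT1, WRKY18 and WRKY70 did not survive when sDH II or 1n 2 was left out, and those of BSMT1 and WRKY18 also not without sDH III. With 1 library left out, 25 to 29 members of the list fell.

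**Figure D2:**
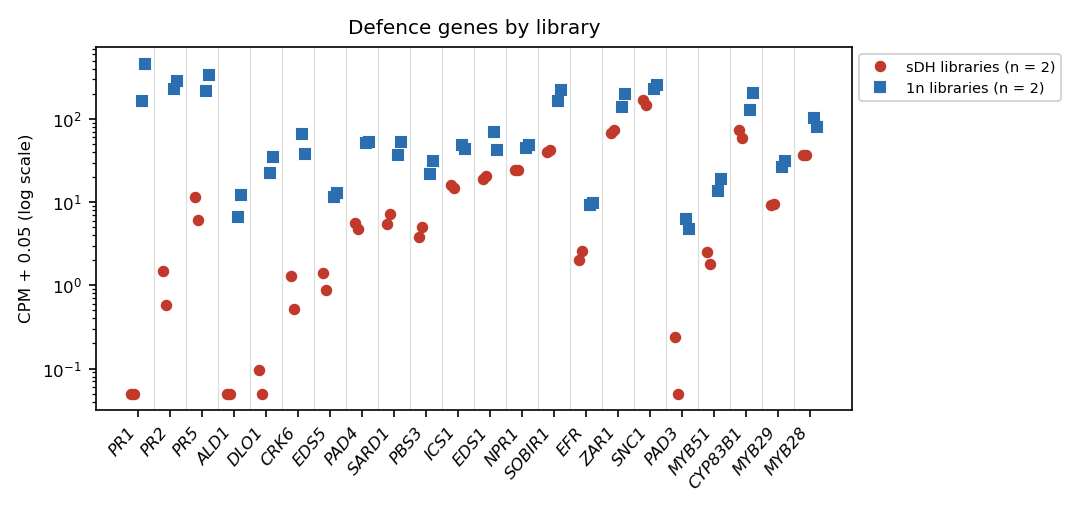
Levels of 22 defence genes in each library, as CPM + 0.05 on a log axis, with the 2 sDH libraries (red circles) left of the 2 1n libraries (blue squares) for each gene. The genes are a choice from their lists, and members that did not pass, such as FLS2 and RPP4, are not drawn. Every gene drawn has both sDH libraries below both 1n libraries, and PR1 and ALD1 have no count in sDH.

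Cell-surface and intracellular immune receptors fell in part. In the list of pattern-triggered immunity, the response to conserved microbial molecules, 14 of 22 fell, none rose and 8 did not pass (median log2 change -0.98, or -0.60 without 1n 2). SOBIR1, the receptor-like kinase that partners receptor-like proteins, came to 39.7 and 42.9 CPM in the sDH libraries, against 167 and 222 CPM in the 1n libraries. EFR, the receptor of bacterial elongation factor Tu, stood at 1.96 and 2.52 CPM in the sDH libraries, against 9.15 and 9.79 CPM in the 1n libraries. All sDH values of both genes lay below all 1n values (SOBIR1: log2 change -2.23, SE 0.193, edgeR adjusted p = 8.7e-06; EFR: log2 change -2.09, SE 0.204, edgeR adjusted p = 1.75e-05). The flagellin receptor FLS2 did not pass, with 24.3 and 20.4 CPM in sDH, against 25.8 and 23.5 CPM in 1n (log2 change -0.14, edgeR adjusted p = 0.321). Without 1 library, 10 to 16 members fell.

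Among intracellular receptors of the nucleotide-binding type and their helpers, 14 of 18 fell and none rose (median log2 change -0.61). ZAR1, which assembles into a wheel-shaped channel on recognition of bacterial effectors, stood at 67.0 and 73.6 CPM in the sDH libraries, against 139 and 201 CPM in the 1n libraries (log2 change -1.27, SE 0.196, edgeR adjusted p = 0.000349). ADR1, a helper receptor that acts with EDS1 and PAD4, measured 4.57 and 4.97 CPM in the sDH libraries, against 13.9 and 18.9 CPM in the 1n libraries (log2 change -1.78, SE 0.187, edgeR adjusted p = 2.72e-05). In both genes the groups did not overlap. SNC1 and RPS2 fell by 0.60 and 0.77 on the log2 scale (edgeR adjusted p = 0.0029 and 0.000889). RPP4, RPP5, RPP8 and CSA1 did not pass. Since SNC1, RPP4 and RPP5 lie in a cluster of similar genes, and the rule for reads with several hits is not given in the sources used here, their counts are uncertain. 8 members fell when sDH III was left out, against 11 to 14 when any other library was.

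Genes for sulfur-containing and indolic defence compounds were lower as well. All 15 tested genes of camalexin and indolic glucosinolates fell (median log2 change -1.33, or -0.95 without 1n 2). Of aliphatic glucosinolates, which plants of the cabbage family make from methionine, 15 of 18 genes fell (median -1.78, or -1.01 without 1n 2). CYP83B1, which commits indole compounds to glucosinolates, came to 73.1 and 59.9 CPM in the sDH libraries, against 129 and 206 CPM in the 1n libraries (log2 change -1.33, SE 0.240, edgeR adjusted p = 0.000951). PEN2, the myrosinase that activates them on attack, stood at 78.8 and 82.5 CPM in the sDH libraries, against 123 and 178 CPM in the 1n libraries (log2 change -0.90, SE 0.160, edgeR adjusted p = 0.000846). MYB29, a regulator of the aliphatic branch, stood at 9.10 and 9.36 CPM in the sDH libraries, against 26.5 and 31.6 CPM in the 1n libraries (log2 change -1.66, SE 0.175, edgeR adjusted p = 2.79e-05). The groups did not overlap in any of these 3. The aliphatic enzymes were much higher in 1n 2 than in 1n 1: MAM1, which lengthens the methionine chain, had 54.4 and 38.7 CPM in sDH, against 90.0 and 318 CPM in 1n. Its log2 change of -2.13 shrank to -0.95 (edgeR adjusted p = 0.0027) without 1n 2 and grew to -2.76 without 1n 1. PAD3, the last enzyme of camalexin, had 4 counts in sDH II and none in sDH III, against 6.24 and 4.67 CPM in 1n (edgeR adjusted p = 0.000137). Of the indolic list 10 members fell without sDH II.

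Genes that plants induce in darkness or sugar shortage were mostly higher in sDH. Of 30 such genes tested, 17 rose and 3 fell (median log2 change 0.95). ASN1, the asparagine synthetase that stores nitrogen in the dark, measured 809.6 and 822 CPM in the sDH libraries, against 22.7 and 28.9 CPM in the 1n libraries. SEN1, a gene of unsettled function that serves as the marker of dark-induced ageing, came to 523 and 748 CPM in the sDH libraries, against 9.45 and 18.4 CPM in the 1n libraries. BCAT-2, an aminotransferase of branched-chain amino acids, stood at 73.2 and 106 CPM in the sDH libraries, against 0.667 and 0.632 CPM in the 1n libraries. The sDH libraries were close to each other in ASN1, and in all 3 genes every sDH value was far above every 1n value (ASN1: log2 change 4.98, SE 0.332, edgeR adjusted p = 2.23e-06). The log2 changes of SEN1 and BCAT-2 were 5.52 and 7.09 (SE 0.357 and 0.277, edgeR adjusted p = 2.07e-06 and 3.72e-07).

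The mitochondrial route that breaks down leucine and its relatives rose at several steps. MCCA, the biotin-bearing subunit of methylcrotonyl-CoA carboxylase, stood at 260.4 and 324 CPM in the sDH libraries, against 28.7 and 32.9 CPM in the 1n libraries. IVD, isovaleryl-CoA dehydrogenase, measured 51.3 and 54.7 CPM in the sDH libraries, against 13.9 and 15.3 CPM in the 1n libraries. Neither gene overlapped between groups (MCCA: log2 change 3.25, SE 0.166, edgeR adjusted p = 8.05e-07; IVD: log2 change 1.86, SE 0.115, edgeR adjusted p = 1.78e-06). MCCB, the partner subunit, and ETFQO, which passes the electrons of IVD to the respiratory chain, rose by 1.01 and 1.42 on the log2 scale (edgeR adjusted p = 0.00034 and 2.88e-05). GDH2, a glutamate dehydrogenase subunit, rose by 1.42 (edgeR adjusted p = 6.29e-05). Outside the list, and chosen after their values were seen, subunits of the branched-chain keto acid dehydrogenase rose too: BCE2 had 81.4 and 108 CPM in sDH, against 20.5 and 19.3 CPM in 1n (log2 change 2.25, edgeR adjusted p = 1.48e-06), and DIN4 had 63.8 and 81.3 CPM in sDH, against 18.3 and 23.2 CPM in 1n (log2 change 1.81, edgeR adjusted p = 1.14e-05). Further genes chosen in this way were ALDH6B2, for valine breakdown, and HGO, for tyrosine breakdown, which rose by 1.56 and 1.52 on the log2 scale (edgeR adjusted p = 4.67e-06 and 2.92e-05). AKINBETA1, a subunit of the sugar-sensing kinase SnRK1, rose by 0.89 (edgeR adjusted p = 0.000404).

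Other members of the list did not follow. The trehalose phosphate synthase-like gene TPS8 did not pass, and nor did the transcription factor gene BZIP1 (7.74 and 8.60 CPM in sDH, against 2.24 and 7.58 CPM in 1n, log2 change 0.74, edgeR adjusted p = 0.125). PPDK, which recycles pyruvate into phosphoenolpyruvate, fell (31.8 and 39.0 CPM in sDH, against 67.6 and 99.2 CPM in 1n, log2 change -1.24, edgeR adjusted p = 0.00193). BT2, a scaffold protein, had 118 and 154 CPM in sDH, against 17.5 and 329.6 CPM in 1n, and did not pass. The 1n libraries lay on both sides of the sDH values of BT2, which rose by 2.96 on the log2 scale when 1n 2 was left out (edgeR adjusted p = 2.69e-06). With 1 library left out, 13 to 23 members rose and 1 to 6 fell, the highest count of falls being without 1n 1.

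**Figure D3:**
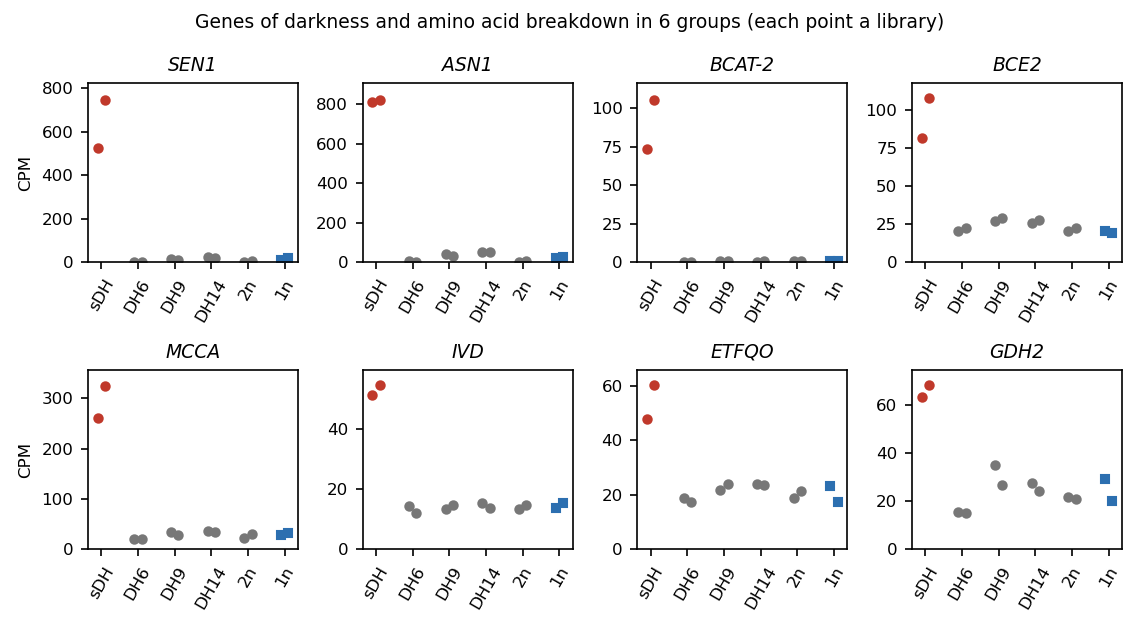
Levels in CPM of 8 genes in each of the 12 RNA libraries, by group, with sDH (red) at the left, 3 DH lines and 2n in grey, and 1n (blue squares) at the right. The genes are a choice, and members of the darkness list that fell or did not pass, such as PPDK and BT2, are not drawn. In all 8 genes both sDH libraries lie above the other 10 libraries, as in ASN1 with 809.6 and 821.8 CPM in sDH. All 8 are among the 274 genes that passed as higher in sDH than in each other group. Their choice thus favours this separation.

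Genes of carbon fixation were lower in sDH. In the Calvin cycle 16 of 21 genes fell and none rose (median log2 change -0.54). FBA2, a chloroplast aldolase, came to 2922 and 3103 CPM in the sDH libraries, against 6101 and 5471 CPM in the 1n libraries (log2 change -0.94, SE 0.0765, edgeR adjusted p = 6.05e-06). PRK, the phosphoribulokinase found in no other pathway, stood at 1175 and 1194 CPM in the sDH libraries, against 2079 and 1782 CPM in the 1n libraries (log2 change -0.70, SE 0.0834, edgeR adjusted p = 5.95e-05). In both genes the groups did not overlap. Of genes of photosystems and light harvesting 16 of 36 fell and 1 rose, with a small median log2 change of -0.17; 8 fell without sDH II, and 10 fell and 7 rose without 1n 2 (median -0.09). PSBO1, of the oxygen-evolving complex, stood at 3922 and 4429 CPM in the sDH libraries, against 6791 and 6956 CPM in the 1n libraries (log2 change -0.72, SE 0.0802, edgeR adjusted p = 4.01e-05). The member that rose was LHCB5, an inner antenna protein of photosystem II (7919 and 8377 CPM in sDH, against 4809 and 5795 CPM in 1n, log2 change 0.62, SE 0.0921, edgeR adjusted p = 0.000271). Genes of chlorophyll synthesis moved both ways, with 9 of 18 up and 5 down, the latter a share near that of all genes. PORA, the light-dependent reductase made by dark-grown seedlings, had 65.7 and 76.9 CPM in sDH, against 16.5 and 13.5 CPM in 1n (log2 change 2.25, SE 0.198, edgeR adjusted p = 9.65e-06), and PORB had 2168 and 2322 CPM in sDH, against 868 and 1277 CPM in 1n (log2 change 1.07, SE 0.143, edgeR adjusted p = 0.00014). Both reductases were higher in each sDH library than in either 1n library. The third, PORC, did not pass (log2 change 0.09, edgeR adjusted p = 0.38). Without sDH III 2 genes of chlorophyll synthesis fell.

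Of starch and sugar transport genes 11 of 29 fell and 6 rose (median log2 change -0.20). The share that rose was near that of all genes. Without sDH II 7 fell and 5 rose, and without 1n 2 9 fell and 8 rose, with a median of -0.11, while the median without 1n 1 was -0.13. SWEET11, a sucrose exporter of leaf veins, measured 39.8 and 42.0 CPM in the sDH libraries, against 119 and 121 CPM in the 1n libraries (log2 change -1.56, SE 0.0983, edgeR adjusted p = 1.91e-06). BAM3, the main amylase of starch breakdown at night, came to 126 and 119.8 CPM in the sDH libraries, against 318 and 264 CPM in the 1n libraries (log2 change -1.24, SE 0.0896, edgeR adjusted p = 3.22e-06). PWD, a kinase that loosens the starch granule, went the other way, with 176 and 178 CPM in the sDH libraries, against 69.6 and 103 CPM in the 1n libraries (log2 change 1.04, SE 0.157, edgeR adjusted p = 0.000299). The groups did not overlap in any of the 3. Nitrogen genes were mostly lower: 12 of 20 fell and 1 rose (median -0.55). NIA2, the major nitrate reductase, stood at 351 and 330.3 CPM in the sDH libraries, against 920.3 and 1274 CPM in the 1n libraries (log2 change -1.69, SE 0.155, edgeR adjusted p = 1.24e-05). GLN1-1, a cytosolic glutamine synthetase, stood at 34.3 and 29.3 CPM in the sDH libraries, against 109 and 92.3 CPM in the 1n libraries (log2 change -1.66, SE 0.142, edgeR adjusted p = 8.34e-06), while its homologue GLN1-3, the member that rose, had 31.4 and 30.6 CPM in sDH, against 14.1 and 20.5 CPM in 1n (log2 change 0.84, SE 0.144, edgeR adjusted p = 0.000688). Nitrate reductase and GLN1-1 were thus low, and asparagine synthetase ASN1 high, in both sDH libraries.

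Genes of cell division were higher in sDH. In mitosis and cytokinesis 29 of 32 rose and none fell (median log2 change 1.78), and in DNA replication 23 of 29 rose and none fell (median 0.75). CDKB2-1, a plant kinase of the passage into mitosis, measured 22.6 and 22.9 CPM in the sDH libraries, against 7.76 and 6.38 CPM in the 1n libraries (log2 change 1.68, SE 0.135, edgeR adjusted p = 5.71e-06). HIK, a kinesin of the cell plate, came to 32.2 and 23.2 CPM in the sDH libraries, against 7.51 and 8.59 CPM in the 1n libraries (log2 change 1.79, SE 0.153, edgeR adjusted p = 8.42e-06). CYCB1-2, a mitotic cyclin, stood at 28.9 and 27.3 CPM in the sDH libraries, against 6.42 and 5.24 CPM in the 1n libraries (log2 change 2.27, SE 0.149, edgeR adjusted p = 2.12e-06). All sDH values were well above the 1n values. Of the replication helicase, MCM5 had 42.1 and 37.2 CPM in sDH, against 18.1 and 21.0 CPM in 1n (log2 change 1.02, SE 0.111, edgeR adjusted p = 3.48e-05) and MCM6 had 23.9 and 22.6 CPM in sDH, against 10.8 and 11.4 CPM in 1n (log2 change 1.07, SE 0.0906, edgeR adjusted p = 7.86e-06). RNR1, the large subunit of the enzyme that makes deoxynucleotides, had 125 and 109.7 CPM in sDH, against 53.1 and 51.2 CPM in 1n (log2 change 1.17, SE 0.0982, edgeR adjusted p = 7.27e-06). CDT1B, which loads the helicase, had the highest log2 change of the replication list, 2.12 (SE 0.216, edgeR adjusted p = 2.27e-05). With 1 library left out, 28 to 30 mitosis genes and 21 to 24 replication genes rose.

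Regulators of the exit from division and of the endocycle, in which DNA is copied without mitosis, moved both ways. Of 18 tested, 9 rose and 5 fell, and 5 rose and 1 fell without sDH II, while 2 fell without sDH III and 2 without 1n 1. With all libraries, the share that fell was near that of all genes. DEL2, an atypical E2F factor, stood at 4.06 and 5.38 CPM in the sDH libraries, against 0.969 and 1.45 CPM in the 1n libraries (log2 change 1.95, SE 0.291, edgeR adjusted p = 0.000277). KRP6, a kinase inhibitor, measured 3.41 and 4.16 CPM in the sDH libraries, against 9.09 and 9.73 CPM in the 1n libraries (log2 change -1.32, SE 0.229, edgeR adjusted p = 0.000746). In both genes the groups were apart. Of 7 kinetochore genes 3 rose and none fell, among them MAD2 and WYR, which rose by 1.87 and 1.57 on the log2 scale (edgeR adjusted p = 1.03e-05 and 1.41e-05). CENH3, the histone that marks centromeres and whose altered forms are used to make haploids, did not pass, with 5.83 and 4.80 CPM in the sDH libraries, against 3.64 and 5.49 CPM in the 1n libraries (log2 change 0.23, SE 0.313, edgeR adjusted p = 0.574). Its 2 groups overlapped.

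In the list of growth and cell wall expansion 11 of 40 genes rose and 16 fell (median log2 change -0.22, or -0.10 with no filter on low counts). The share of this list that rose was near the 24.1% of all genes. Among guard cell and trichome markers 7 of 12 rose and 3 fell, the latter a share near that of all genes. Regulators of young leaves and of the stomatal lineage were among the genes that rose. GRF5, a growth-regulating factor, and its coactivator AN3 prolong division in young leaves. GRF4, of the same family, came to 16.7 and 15.3 CPM in the sDH libraries, against 4.97 and 4.29 CPM in the 1n libraries (log2 change 1.79, SE 0.143, edgeR adjusted p = 5.52e-06). AN3 stood at 5.83 and 4.21 CPM in the sDH libraries, against 0.848 and 0.947 CPM in the 1n libraries (log2 change 2.48, SE 0.280, edgeR adjusted p = 4.25e-05). GRF5 had 27 and 20 counts in sDH, against 1 count in each 1n library, a ratio of 19.7 with a 95% counting interval of 5.17 to 168 (edgeR adjusted p = 0.000842). ANT, which keeps leaf cells competent to divide, rose by 1.23 and XTH9, a wall enzyme of young tissue, by 2.29 on the log2 scale (edgeR adjusted p = 8.3e-05 and 8.42e-06). Of the stomatal lineage, SPCH, which starts it, stood at 14.9 and 10.6 CPM in the sDH libraries, against 3.09 and 2.15 CPM in the 1n libraries (log2 change 2.28, SE 0.250, edgeR adjusted p = 3.53e-05). TMM, a receptor that spaces stomata, measured 32.7 and 27.7 CPM in the sDH libraries, against 7.88 and 7.39 CPM in the 1n libraries (log2 change 1.98, SE 0.143, edgeR adjusted p = 3.31e-06). MUTE and the secreted peptides EPF1 and EPF2 rose by 1.66, 1.09 and 1.62 (edgeR adjusted p = 0.00157, 0.00212 and 0.00132). KAT1, a potassium channel of mature guard cells, fell (14.9 and 16.4 CPM in sDH, against 32.8 and 36.9 CPM in 1n, log2 change -1.15, SE 0.122, edgeR adjusted p = 2.8e-05). The groups did not overlap in any of these genes.

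Genes of shade and cell elongation were among the 16 that fell in the growth list. HB-2, a homeobox gene induced by shade, came to 5.69 and 6.96 CPM in the sDH libraries, against 35.4 and 123 CPM in the 1n libraries (log2 change -3.65, edgeR adjusted p = 9.75e-05). Its level differed between the 1n libraries, and the log2 change was -2.49 (edgeR adjusted p = 2.69e-06) without 1n 2 and -4.29 (edgeR adjusted p = 2.51e-07) without 1n 1. YUC8, an auxin synthesis gene, stood at 0.280 and 0.234 CPM in the sDH libraries, against 2.00 and 3.66 CPM in the 1n libraries (log2 change -3.42, SE 0.482, edgeR adjusted p = 0.000193). XTH24, a wall-loosening enzyme, stood at 4.48 and 6.32 CPM in the sDH libraries, against 34.2 and 19.8 CPM in the 1n libraries (log2 change -2.33, SE 0.296, edgeR adjusted p = 9.46e-05). PIF5, a factor that promotes elongation, fell by 0.67 on the log2 scale (edgeR adjusted p = 0.00144).

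**Figure D4:**
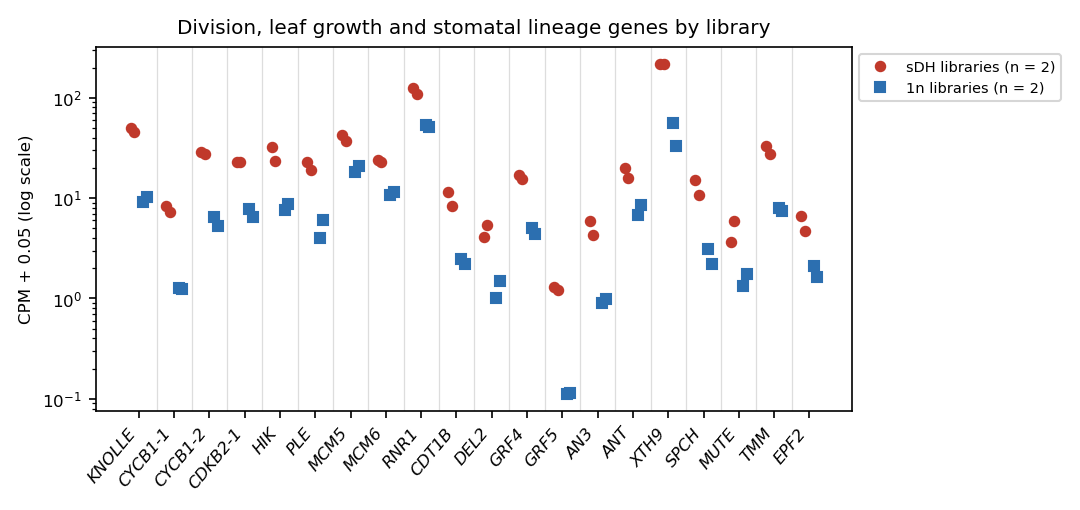
Levels of 20 genes of division, replication, leaf growth and the stomatal lineage in each library, as CPM + 0.05 on a log axis, with the 2 sDH libraries (red circles) left of the 2 1n libraries (blue squares). The genes are a choice from their lists, and members that fell, such as KAT1 and KRP6, are not drawn. In the genes drawn, all sDH points lie above the 1n points of the same gene.

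Marker lists show what tissue these leaves held. All 7 leaf mesophyll markers were abundant, with a summed level of 51266 and 55789 CPM in sDH, against 67750.4 and 64622 CPM in 1n, and 5 of 7 fell. Of 3 tested markers of shoot meristem and leaf primordium, CLV1 and REV rose by 0.45 and 0.70 on the log2 scale (edgeR adjusted p = 0.00158 and 0.000214), with a summed level over the 10 listed genes of 96.4 and 96.3 CPM in sDH, against 71.1 and 64.5 CPM in 1n. The defining meristem genes STM, WUS and CLV3 were too low to be tested. The 8 flower and pollen markers summed to 1.07 and 1.11 CPM in sDH, against 3.21 and 2.72 CPM in 1n, and the 11 seed markers to 0.700 and 0.176 CPM in sDH, against 0.364 and 0.253 CPM in 1n, with 8 of them at 0. Root markers summed to 825 and 977 CPM in sDH, against 873 and 1187 CPM in 1n, nearly all of it ELP, a chitinase-like gene also expressed in leaves, and 6 of 11 were at 0. CASP1, a root endodermis gene, rose at a low level (0.513 and 0.585 CPM in sDH, against 0.121 and 0.0632 CPM in 1n, edgeR adjusted p = 0.0372), a call lost without any 1 of the 4 libraries. AG, a floral homeotic gene, fell (0.560 and 0.234 CPM in sDH, against 2.42 and 1.07 CPM in 1n, edgeR adjusted p = 0.023), a call lost without sDH III or 1n 1. Guard cell and trichome markers summed to 144 and 129 CPM in sDH, against 109.6 and 101 CPM in 1n. Of these, 7 of 12 rose and 3 fell (1 fell without sDH III or without 1n 1). With all libraries, the share of them that fell was near that of all genes. The part of stomatal lineage cells, or of leaf age, in the higher level of division genes was not tested.

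Genes of DNA methylation, a mark the study profiled in samples not analysed here, were mostly higher. Of 19 tested, 13 rose and 1 fell (median log2 change 0.48). DDM1, the remodeller that opens heterochromatin to methyltransferases, measured 17.2 and 17.1 CPM in the sDH libraries, against 8.85 and 8.34 CPM in the 1n libraries (log2 change 1.00, SE 0.126, edgeR adjusted p = 9.11e-05). CMT3, the methyltransferase of CHG sites, came to 42.5 and 34.2 CPM in the sDH libraries, against 21.9 and 20.9 CPM in the 1n libraries (log2 change 0.84, SE 0.125, edgeR adjusted p = 0.000271). VIM1, which guides maintenance of CG methylation, stood at 43.5 and 39.0 CPM in the sDH libraries, against 23.3 and 20.4 CPM in the 1n libraries (log2 change 0.92, SE 0.117, edgeR adjusted p = 9.54e-05). In all 3 the groups did not overlap. The member that fell was DML3, a demethylase (5.46 and 6.14 CPM in sDH, against 11.8 and 13.1 CPM in 1n, log2 change -1.11, SE 0.195, edgeR adjusted p = 0.000838). MET1, the CG methyltransferase, changed by 0.46 (SE 0.117, edgeR adjusted p = 0.00708), and its call was lost without sDH II (edgeR adjusted p = 0.0589). Without sDH II, 6 members rose. CMT3, DDM1 and the VIM genes are known to be expressed most in dividing cells, and whether their level moved with the share of such cells was not tested.

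In RNA-directed DNA methylation, in which small RNAs guide the methyltransferase DRM2, 7 of 22 genes rose, a share near that of all genes, and 1 fell (median log2 change 0.36). The largest subunits of the 2 plant polymerases of this route moved in opposite directions. NRPE1, of the polymerase that makes the scaffold RNA, stood at 20.9 and 20.9 CPM in the sDH libraries, against 9.27 and 11.4 CPM in the 1n libraries (log2 change 1.02, SE 0.137, edgeR adjusted p = 0.000141). NRPD1, of the polymerase that makes the precursors of small RNAs, measured 2.61 and 3.04 CPM in the sDH libraries, against 6.18 and 8.40 CPM in the 1n libraries (log2 change -1.37, SE 0.213, edgeR adjusted p = 0.000375). Neither overlapped between groups. SDC, a gene silenced by methylation of repeats in its promoter, was low in both groups and lower in sDH (0.607 and 0.234 CPM in sDH, against 2.36 and 3.09 CPM in 1n, log2 change -2.64, edgeR adjusted p = 0.00138). Its log2 change ranged from -2.15 without sDH III to -3.50 without sDH II. FWA, silenced in the same way, was too low to be tested.

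Clock genes moved both ways. Of 27 tested, 9 rose and 3 fell (median log2 change 0.06). FKF1, a blue-light sensor of the afternoon, came to 25.6 and 28.1 CPM in the sDH libraries, against 4.00 and 6.25 CPM in the 1n libraries (log2 change 2.39, SE 0.231, edgeR adjusted p = 1.65e-05). PRR3 stood at 15.7 and 21.0 CPM in the sDH libraries, against 4.36 and 6.51 CPM in the 1n libraries (log2 change 1.75, SE 0.206, edgeR adjusted p = 5.64e-05), and GI, which works with FKF1, at 81.0 and 94.6 CPM in the sDH libraries, against 46.6 and 57.1 CPM in the 1n libraries (log2 change 0.76, SE 0.122, edgeR adjusted p = 0.000463). All sDH values of these 3 genes lay above the 1n values. The morning gene CCA1 stood at 88.5 and 57.6 CPM in the sDH libraries, against 178 and 71.2 CPM in the 1n libraries and did not pass (log2 change -0.77, SE 0.323, edgeR adjusted p = 0.0697). Its 1n values lay on both sides of 1 sDH value, 1n 1 being the highest of the 4 libraries. LHY, its partner, had 176 CPM in 1n 1 and 38.9 CPM in 1n 2, and its fall (39.1 and 24.3 CPM in sDH, log2 change -1.76, edgeR adjusted p = 0.0142) was lost without 1n 1, with a log2 change of -0.29 (edgeR adjusted p = 0.354), and without sDH III (edgeR adjusted p = 0.103). Without 1n 2, 13 clock genes rose and 8 fell (median 0.44), and the median was 0.12 without sDH II and 0.01 without sDH III. The hour of harvest is not given in the sources used here, and its part in these differences cannot be told apart from that of the group.

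Few flowering time genes passed, with 2 of 26 up and 6 down (median log2 change -0.07). The share that fell was near that of all genes. SOC1, an integrator that promotes flowering, measured 34.1 and 42.1 CPM in the sDH libraries, against 54.0 and 78.1 CPM in the 1n libraries (log2 change -0.80, SE 0.166, edgeR adjusted p = 0.00243), and SVP, a repressor, had 64.3 and 62.2 CPM in the sDH libraries, against 92.5 and 117 CPM in the 1n libraries (log2 change -0.72, SE 0.120, edgeR adjusted p = 0.00054). Both were lower in each sDH library. SPL9, an age-dependent promoter of flowering, came to 9.05 and 9.01 CPM in the sDH libraries, against 4.54 and 4.61 CPM in the 1n libraries (log2 change 0.98, SE 0.217, edgeR adjusted p = 0.00341). FT, the mobile signal of the leaf, was too low to be tested. Without 1n 2, 5 genes of this list rose, and 1 did without 1n 1. Its median was 0.01 without 1n 2, -0.16 without 1n 1 and -0.20 without sDH III.

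Iron genes were mostly lower. Of 17 tested, 11 fell and 2 rose (median log2 change -0.88). FRO7, a chloroplast ferric reductase, stood at 79.9 and 73.3 CPM in the sDH libraries, against 247 and 201 CPM in the 1n libraries (log2 change -1.55, SE 0.114, edgeR adjusted p = 3.53e-06). YSL3, a carrier of iron bound to nicotianamine, stood at 22.3 and 21.1 CPM in the sDH libraries, against 47.0 and 57.7 CPM in the 1n libraries (log2 change -1.27, SE 0.141, edgeR adjusted p = 3.89e-05). The members that rose were ferritin genes, whose proteins store iron: FER3 had 77.3 and 75.4 CPM in sDH, against 43.7 and 43.8 CPM in 1n (log2 change 0.80, SE 0.0967, edgeR adjusted p = 6.6e-05) and FER4 had 62.5 and 49.9 CPM in sDH, against 26.6 and 30.3 CPM in 1n (log2 change 0.98, SE 0.171, edgeR adjusted p = 0.000761). None of the 4 overlapped between groups. BHLH100, a regulator induced by lack of iron, had 0.187 and 0.585 CPM in sDH, against 8.97 and 6.19 CPM in 1n, and its log2 change of -4.35 (edgeR adjusted p = 0.00114) lay between -5.29 without sDH III and -3.68 without sDH II. Its homologues BHLH38 and BHLH39 lost their calls without sDH II. Without sDH II, 7 members fell.

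Genes of jasmonate, touch, cold and anthocyanin are among those in which the 1n libraries disagreed. Of 24 jasmonate genes 22 were over 2-fold higher in 1n 2 than in 1n 1, and none was over 2-fold higher in 1n 1. LOX2, which starts jasmonate synthesis in leaves, measured 354 and 274 CPM in the sDH libraries, against 492 and 1747 CPM in the 1n libraries. VSP2, a storage protein induced by jasmonate, came to 3.31 and 0.878 CPM in the sDH libraries, against 1.82 and 107 CPM in the 1n libraries. The sDH values of LOX2 lay below both 1n libraries, and its fall (log2 change -1.83, edgeR adjusted p = 0.048) was lost without sDH II, sDH III or 1n 2, where its log2 change was -0.64. The sDH values of VSP2 lay on both sides of 1n 1. Altogether 5 of 24 jasmonate genes fell, and their median log2 change of -1.67 was -0.10 without 1n 2 and -2.31 without 1n 1. Of the 24, 18 fell without 1n 1 and 1 without sDH II, sDH III or 1n 2, and 16 with no filter on low counts. PDF1.2, a defensin, kept its call in each case (0.280 and 0.117 CPM in sDH, against 9.09 and 21.2 CPM in 1n, log2 change -6.15, edgeR adjusted p = 0.00318), with -5.41 without 1n 2 and -6.93 without sDH II. Of cold and abscisic acid genes 2 of 25 rose and 5 fell, against 10 and 3 without 1n 2 and 2 and 9 without 1n 1; 3 fell without sDH II, and 0 rose without sDH III. In rapid touch and wound genes 5 of 20 rose and 2 fell, against 10 and 2 without 1n 2 and 3 and 5 without 1n 1, and 3 rose without sDH III. With all libraries, the share of touch and wound genes that rose was near that of all genes. So was the share of cold and abscisic acid genes that fell. ERF104, a fast-acting factor of this list, rose (49.2 and 86.0 CPM in sDH, against 12.8 and 20.9 CPM in 1n, log2 change 2.00, SE 0.300, edgeR adjusted p = 0.00029). Of flavonoid genes 3 of 16 fell and none rose; CHS, the first enzyme of the pathway, had 69.7 and 60.0 CPM in sDH, against 209 and 109.9 CPM in 1n (log2 change -1.30, SE 0.250, edgeR adjusted p = 0.00148). DFR, further down towards anthocyanin, had 7.65 and 5.56 CPM in sDH, against 0.485 and 11.4 CPM in 1n and did not pass. Without 1n 2 5 flavonoid genes rose, and without 1n 1 2 did.

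**Figure D5:**
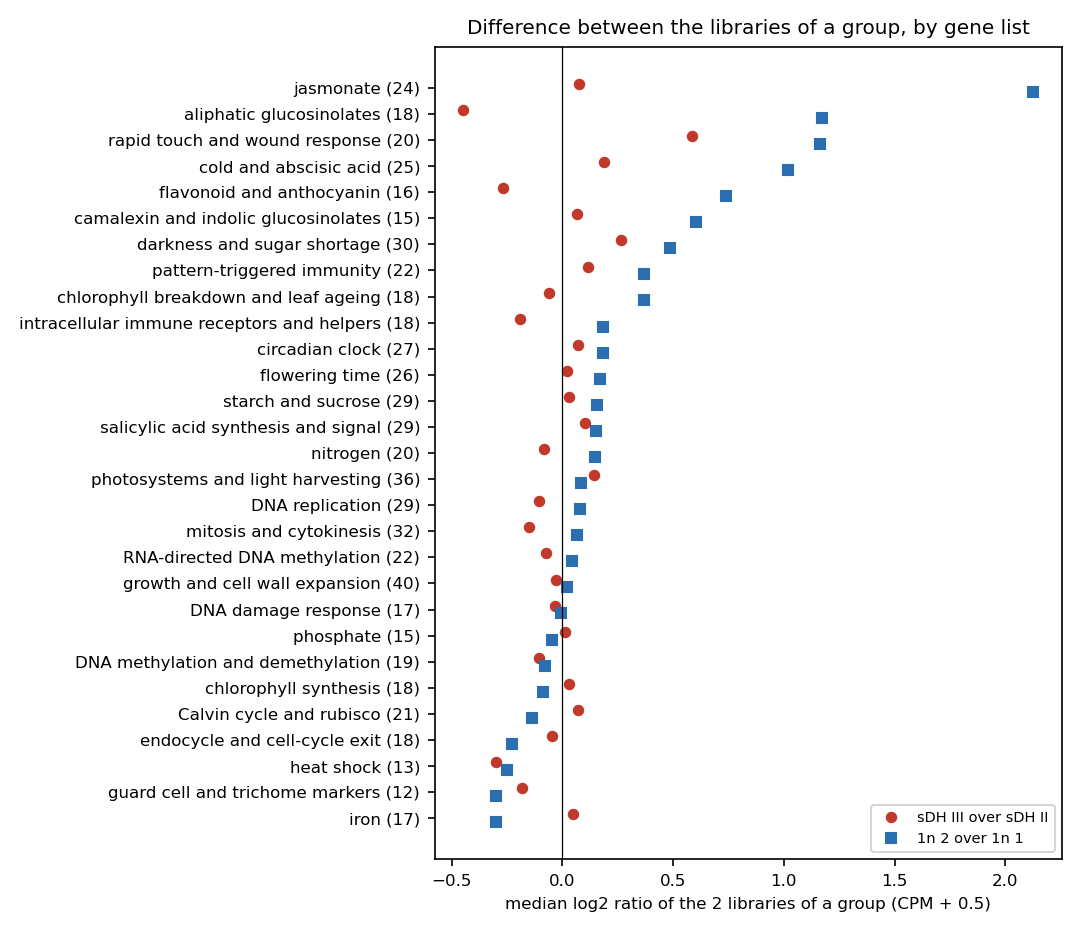
For each list of the plot of shares, the median log2 ratio between the 2 libraries of a group is given (CPM + 0.5). Red circles, the upper of each pair, show sDH III over sDH II, and blue squares show 1n 2 over 1n 1. The number of tested members is in brackets. Jasmonate genes have the highest median between 1n libraries, 2.13, against 0.08 between sDH libraries.

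A gene set in which sDH stood apart from every other group was taken from the same fit. It holds genes that passed in 1 direction in sDH against each of 1n, 2n, DH6, DH9 and DH14, contrasts that share the sDH libraries. It held 274 genes higher in sDH (1.43% of those tested) and 176 lower (0.917%). Taken singly, 30.4% of genes passed between sDH and 2n, 7.33% between sDH and DH6, 26.5% between sDH and DH9 and 28.0% between sDH and DH14. Of the darkness and sugar shortage list, 12 of 30 were among the 274: ASN1, SEN1, BCAT-2, MCCA, MCCB, IVD, ETFQO, GDH2, AKINBETA1, THA1, BGAL4 and BGAL1. BGAL1 lost its call against 1n without sDH II, sDH III or 1n 1. No member of the mitosis or replication lists was in either direction of the set. The count is sensitive to the sDH libraries, being 168 higher and 79 lower without sDH II and 91 and 47 without sDH III, against 358 and 311 without 1n 1 and 393 and 282 without 1n 2.

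ASN1, SEN1 and BCAT-2 illustrate the set. The other 10 libraries held 2.18 to 52.9 CPM of ASN1, 1.71 to 22.8 CPM of SEN1 and 0.0474 to 0.910 CPM of BCAT-2, all below the sDH libraries. UMAMIT33, of a family of amino acid exporters, had 9.10 and 7.37 CPM in sDH, against 0 to 0.558 CPM in the others. PAP85, a seed storage-like protein, had 2.52 and 5.09 CPM in sDH and 1 count in 1n 1 and none in 1n 2, a ratio of 118 with a counting interval of 20.9 to 4708. GLYI4, of the glyoxalase family, had 1.49 and 3.57 CPM in sDH and likewise 1 count, in 1n 1. In the other direction, CRK7 was without a count in sDH and held 0.225 to 20.7 CPM in the other 10 libraries. TAT3, a tyrosine aminotransferase induced by jasmonate, had 0.513 and 0.117 CPM in sDH, against 1.94 to 107 CPM elsewhere, and PR2 had 5.53 to 286 CPM elsewhere. Every sDH library was below the lowest of the others in CRK7, TAT3 and PR2. EXT3, an extensin of the cell wall, had 0.0467 CPM in sDH II and 0.995 CPM in sDH III, and 2.22 to 50.5 CPM elsewhere. Chosen after their values were seen, the nucleolar fibrillarin genes FIB1 and FIB2, which help to process ribosomal RNA, were higher in sDH than in every other group (FIB2: 113 and 93.8 CPM in sDH, against 31.3 and 30.1 CPM in 1n, log2 change 1.75, edgeR adjusted p = 2.24e-06). Against DH6 the log2 changes were smaller, 0.39 for FIB1 and 0.43 for FIB2 (edgeR adjusted p = 0.013 and 0.0418).

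Among the 8 highest and 8 lowest log2 changes against 1n with a known symbol and no overlap between groups, several have appeared above. AGL38, a gene of the MADS-box family, had 1.35 and 1.17 CPM in sDH and no count in 1n, which makes it at least 13.7-fold higher (floor of 3 counts over both 1n libraries, edgeR adjusted p = 0.0029). THA1, a threonine aldolase that breaks down threonine, stood at 6.62 and 10.9 CPM in the sDH libraries, against 0.485 and 0.126 CPM in the 1n libraries. Its log2 change of 4.80 (edgeR adjusted p = 9.7e-05) ranged from 6.05 without 1n 1 to 4.16 without 1n 2. Among the lowest, LUP5, a triterpene synthase gene, was at least 104-fold lower, cwINV6, of the cell wall invertase family, at least 75.0-fold, and MSRB8, a methionine sulfoxide reductase, at least 80.6-fold lower, each with no count in sDH (edgeR adjusted p = 0.000252, 0.000154 and 0.000408). Without 1n 2 the bound of MSRB8 was 45.1-fold. ARD3, of the methionine salvage cycle, had no count in sDH and 3.45 and 39.2 CPM in 1n, at least 269-fold lower, or at least 44.3-fold without 1n 2. The gene CHI (AT2G43570), which encodes a chitinase and not the flavonoid enzyme of the same symbol, had 3 counts in sDH, against 33.1 and 121 CPM in 1n, a ratio of 1n to sDH of 980.4 with a counting interval of 335 to 4757. The ratio was 426 without 1n 2 and 1559 without 1n 1, and all 3 counts were in sDH II.

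Transposable elements (TEs), mobile sequences that DNA methylation keeps silent, gave more reads in sDH than in 1n. For every 1000 counts in genes there were 12.4 and 11.6 counts in TEs in the sDH libraries, against 9.08 and 9.19 in the 1n libraries. Of 31189 annotated TEs, 1374 had enough counts to be tested, of which 340 (24.7%) rose and 181 (13.2%) fell, so 37.9% passed in all (median log2 change 0.24). These shares rest on gene counts as the scale. Scaled to the TE counts themselves, 246 rose and 261 fell, with a median log2 change of -0.04. The summed level was 12161 and 11831 CPM in sDH, against 9507 and 9568 CPM in 1n, a difference of means of 2458 CPM. The 10 TEs with the largest rise made up 1169 CPM of that difference and 3 of them 745 CPM.

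TEs with large differences in level are given singly, chosen after their values were seen apart from AT2TE25440. AT2TE18115 stood at 1019.5 and 1119 CPM in the sDH libraries, against 869 and 648 CPM in the 1n libraries; its rise (log2 change 0.49, edgeR adjusted p = 0.00795) was lost without 1n 2 (edgeR adjusted p = 0.0626). AT4TE59630 measured 673 and 707 CPM in the sDH libraries, against 448 and 412 CPM in the 1n libraries (log2 change 0.68, SE 0.0867, edgeR adjusted p = 8.33e-06). AT4TE67650 came to 201 and 206 CPM in the sDH libraries, against 27.6 and 28.9 CPM in the 1n libraries (log2 change 2.85, SE 0.125, edgeR adjusted p = 2.02e-11). The groups did not overlap in any of these 3. Some TE counts followed a gene: AT3TE63500 had 135 and 115 counts in sDH and 4 and 8 in 1n, and the gene AT3G43850, of unknown function and chosen after its values were seen, had 135 and 125 in sDH and 4 and 10 in 1n. AT2TE25440, the lowest log2 change of all TEs that fell, had no count in sDH and 27.8 and 84.1 CPM in 1n, at least 711-fold lower, or at least 357-fold without 1n 2 (edgeR adjusted p = 2.55e-07). Across the 10 libraries with counts of PR1, its count was 9.77 to 22.7% of that of PR1. Whether such reads come from the TE or from the gene was not tested. Neither the strand setting nor the rule for shared reads is stated in the sources used here.

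The TEs with the highest log2 changes were rare. AT3TE43945 had 40 and 29 counts in sDH and none in 1n, at least 19.3-fold higher (edgeR adjusted p = 0.032), a call lost without sDH II, 1n 1 or 1n 2. Other groups held it too: the DH6 libraries held 37.3 and 5.22 CPM, the 2n libraries 7.74 and 8.24 CPM and DH9 I 5.70 CPM. These lay above the 1.87 and 1.70 CPM of the sDH libraries, while DH9 II and the DH14 libraries held 0 to 0.197 CPM. AT5TE40475 and AT5TE40480 had 23 and 22 counts in sDH II and none in sDH III or in 1n, so their calls (edgeR adjusted p = 0.0254 and 0.0236) rest on 1 library. AT1TE21135 had 4 and 10 counts in sDH and none in 1n, and lost its call without sDH III, 1n 1 or 1n 2. Below AT2TE25440, the lowest were AT1TE40170, AT3TE44395 and AT5TE29665, without counts in sDH and with 240, 147 and 117 counts in the 1n libraries together, most of them in 1n 2. They were at least 95.3-fold, 58.4-fold and 46.5-fold lower in sDH (edgeR adjusted p = 5.9e-06, 0.000454 and 0.000134). Without 1n 2 these bounds were 43.6-fold, 9.34-fold and 23.3-fold. TEs without any count in 1n and with counts in both sDH libraries numbered 139, and 129 showed the reverse.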

How the data were processed

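Raw read counts were used as deposited by the authors, in 1 set of tables for genes and another for transposable elements (TEs). Per the submitters' processing notes, the tools were HISAT2, Subread and DESeq2 with the TAIR10 build, whose versions, annotation and multi-hit and strand settings are missing from the sources used here. Per the labels' protocols, poly(A) RNA was sequenced as pairs of 150 bp. The sDH columns carry the numerals II and III, the WT columns were taken as 2n, and the 1n columns came from a companion gene table because the sDH gene table repeats 1n 1.

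All 12 RNA libraries were fitted together in 6 groups with edgeR 4.0.16 (limma 3.58.1, R 4.3.3) after filterByExpr (minimum count 10, minimum total 15), with trimmed mean of M values scaling, TEs scaled by gene counts, and Benjamini-Hochberg adjustment at 0.05. The step was tested on simulated data. Symbols of named genes came from the gene lists and from RefSeq's TAIR10.1 table. Alternatives were DESeq2 1.42.0, its size factors within edgeR, no filter, the 4 libraries alone, each library left out and TE counts as their own scale. The 12 methylation samples were not analysed here.

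Members and lists were chosen with earlier results of these data known. Named genes are the 8 highest and 8 lowest changes with a symbol and a mean of 20 counts, the 6 highest and 6 lowest of those that set sDH apart from each other group, the 4 highest and 4 lowest TEs, and for each list its defining members and up to 4 more of smallest adjusted p. List members named beyond that rule were chosen after their values were seen: BGAL1, BGAL4, MCCB, AKINBETA1, PPDK, NPR1, NPR4, EDS1, DLO1, BSMT1, WRKY18, WRKY38, WRKY54, CSA1, RPP5, RPP8, MUTE, EPF1, EPF2, FER4, GLN1-3, NYC1, SAG12, STM, WUS and CLV3. So were the TEs AT2TE18115, AT4TE59630, AT4TE67650 and AT3TE63500. Floors of 3 counts and counting intervals cover read sampling alone.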

Additional observations from a re-analysis of the deposited data

How the results depend on the processing

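Counts of genes that passed stayed within 1.5 times under each alternative, at 9295 with DESeq2 size factors, 9248 with no filter, 8048 with DESeq2, 6617 with the 4 libraries alone and 6925 to 9005 with 1 library left out, against 9318. Counts of TEs that passed did so too, at 386 to 487 with 1 library left out, against 521. Genes that set sDH apart from each other group numbered 138 to 675 with 1 library left out, against 450, lowest without sDH III and highest without 1n 2; the cause was not tested. With the 4 libraries alone, fewer members passed in several lists: 7 starch genes fell, 10 photosystem genes fell, 8 DNA methylation genes and 3 of RNA-directed DNA methylation rose, and 5 endocycle genes rose. With no filter 6 clock genes fell, and with DESeq2 5 did.

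Genes whose sign turned with a 1n library had not passed with all libraries. BT2 changed by -1.28 without 1n 1 and 2.96 without 1n 2 (log2), RVE2 by -0.90 and 0.53, CML38 by -0.84 and 1.78, ABF4 by -0.35 and 0.37, and PAP1 by -0.87 and 1.77. XTH8 changed by 0.41 without 1n 1 and -0.41 without 1n 2. The cause was not tested. No paired analysis was possible because the sDH columns carry the numerals II and III and not the replicate numbers of the labels. Features that did not reach the minimum counts in enough of the 12 libraries were not tested, and differences in them were not detectable at this depth.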

Other observations

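Heat shock, phosphate, DNA damage and leaf ageing genes were not set out above. Of 13 heat shock genes 4 fell and 1 rose (none rose without sDH II or 1n 2), with HSP90.1, a chaperone, at 1.40 and 0.878 CPM in sDH, against 14.6 and 5.94 CPM in 1n. Its log2 change of -3.14 (edgeR adjusted p = 0.000141) lay between -3.65 and -2.35 when 1 library was left out, the lowest value without 1n 2 and the highest without 1n 1. Of 15 phosphate genes 8 fell and 1 rose, against 5 and 0 without sDH II, while 5 fell without 1n 1 and none rose without sDH III or 1n 2. PHO2, which limits phosphate uptake, had 51.2 and 45.9 CPM in sDH, against 90.6 and 87.7 CPM in 1n (log2 change -0.88, SE 0.111, edgeR adjusted p = 9.33e-05). The starvation markers SPX1 and PAP17 did not pass (edgeR adjusted p = 0.598 and 0.966). Of 17 DNA damage genes 9 rose and 1 fell, and none fell when any 1 library was left out. TK1A, a thymidine kinase, had 17.7 and 17.5 CPM in sDH, against 7.15 and 8.97 CPM in 1n (log2 change 1.13, SE 0.152, edgeR adjusted p = 0.000144). SOG1, a regulator of the damage response, did not pass (10.2 and 7.72 CPM in sDH, against 9.15 and 8.21 CPM in 1n, edgeR adjusted p = 0.824).

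Genes of leaf ageing were set beside those of darkness. Of 18 genes of chlorophyll breakdown and leaf ageing 10 fell and 2 rose (median log2 change -0.98), against 7 and 1 without 1n 2 (median -0.52), 8 and 1 without sDH II and 9 and 1 without sDH III. SEN1 and ASN1 of the darkness list rose. WRKY53, a factor of early leaf ageing, had 5.18 and 7.55 CPM in sDH, against 16.8 and 30.6 CPM in 1n (log2 change -1.91, SE 0.305, edgeR adjusted p = 0.000436), and SAG21 had 6.07 and 7.37 CPM in sDH, against 45.7 and 68.1 CPM in 1n (log2 change -3.09, SE 0.367, edgeR adjusted p = 6.07e-05). NYC1, a chlorophyll b reductase, rose (141 and 131 CPM in sDH, against 82.0 and 103 CPM in 1n, log2 change 0.56, SE 0.126, edgeR adjusted p = 0.00379). ORE1 and NAP, regulators of leaf ageing, did not pass (edgeR adjusted p = 0.455 and 0.957), and SAG12, the marker of late ageing, was too low to be tested.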
